A study of Mus musculus with 2 samples.

Results

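The regions described here were 10311 bins of 1 kb on the mouse autosomes that held many NcoA3 ChIP reads for their surroundings but lay outside the authors' 2017 peaks. They were chosen from 2462432 autosome bins on fixed bounds counted from position 1 of each chromosome on the mm8 build. A bin had to lie 2 kb or more from any peak, hold 10 or more ChIP read 5′ ends, and have a local ratio of 4 or more. The local ratio was (ChIP reads + 1) over (input reads + 1) times s, where s is the ChIP to input read ratio of the fixed 100 kb bin around it. Bins with 30 or more input reads and the stretch at 53000001 to 111000000 of chromosome 8 were left out. They are called ChIP-rich bins below. The read counts of both libraries chose them, so their high ChIP counts, low input counts and high ratios describe the choice and carry no test.

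The reads came from E14 cells, an established line of mouse embryonic stem cells, specifically E14Tg2A, grown on gelatin with serum and leukaemia inhibitory factor. The ChIP library holds DNA pulled down with anti-NcoA3 antibody. The labels name the second library input, but list IgG as its antibody, and it is called input here. Both groups had 1 library of the same untreated line, so no difference has a replicate check, and every interval is a 95% exact interval for counting error only.

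NcoA3, also known as SRC-3, is a nuclear receptor coactivator of the p160 family. It does not bind DNA by itself but is brought to regulatory elements by nuclear receptors and other transcription factors, where it recruits histone-modifying enzymes such as the acetyltransferases CBP and p300. The title of the series names Esrrb, an orphan nuclear receptor of the embryonic stem cell network, as its partner. In ChIP-seq, fragments around a bound site are sequenced from either end, so that plus-strand reads gather to the left of the site and minus-strand reads to its right. Input chromatin has no such sites by design, but open or easily sheared chromatin and mappable sequence also raise its reads.

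The ChIP library held 11509916 reads and the input 15125180, with 0 reads at a repeated position and strand in either. An open bin, meaning one that met the rules on position, input reads and s, held 4.59 ChIP and 6.02 input reads on average. There were 2311780 such bins, and 133990 of them reached 10 ChIP reads. The ChIP-rich bins were 7.70% of those 133990 and 0.446% of all open bins. The remaining 123679 bins with 10 or more ChIP reads serve below as the comparison, and are called the other ChIP-high bins. With the libraries exchanged, the same rule took 22788 of 403954 bins with 10 or more input reads, or 5.64%. The greater depth of the input means that more bins could enter that count. The exchanged rule took more bins than the 10311 of the rule itself, and its share of all open bins was not taken. Of 11188 bins that passed both read limits anywhere on the autosomes, 563 lay within 2 kb of a peak and 314 in the excluded stretch of chromosome 8.

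ChIP-rich bins held few ChIP reads each. The median was 11 ChIP reads, the highest count 28, and 75.9% of them held 10 to 12 reads. There were 3609 bins at the minimum of 10 reads, 807 with 15 or more and 38 with 20 or more. The other ChIP-high bins had the same median of 11 reads and a similar mean, 11.2 against 11.6. What set the ChIP-rich bins apart within the rule was mainly the input. Their median was 2 input reads against 6 in the other ChIP-high bins, and 62.3% of them held 0 to 2 input reads against 4.44% there. Only 79 ChIP-rich bins held 10 or more input reads.

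**Figure D1:**
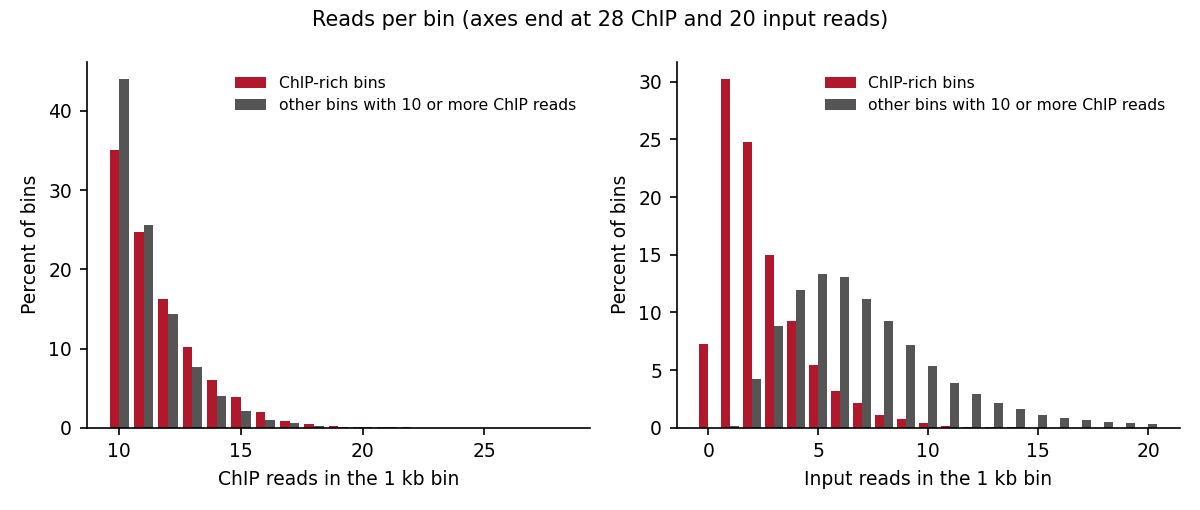
Percent of bins (vertical axis) by the number of ChIP reads (left) or input reads (right) in the 1 kb bin, for the 10311 ChIP-rich bins in red and the 123679 other ChIP-high bins in grey. The ChIP counts of both sets start at 10 with a median of 11, while the input counts centre on 2 in red and 6 in grey.

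Relative to the mean of its own 100 kb bin, a ChIP-rich bin had a median of 2.36 times the ChIP reads and 0.324 times the input reads. For the other ChIP-high bins these medians were 2.16 and 1.11 times. Together the ChIP-rich bins held 119591 ChIP reads, 1.04% of that library, and 25562 input reads, 0.169% of that library. Their pooled ratio, ChIP reads over input reads times s and without a pseudocount, was 7.27 (interval 7.18 to 7.37). It was 1.84 in the other ChIP-high bins. The local ratio of single bins had a median of 4.91 and reached 29.8. It lay between 4 and 6 in 7835 bins and at 10 or more in 481. Just inside the limit, at local ratios of 4.0 to 4.1, there were 798 bins with medians of 11 ChIP and 3 input reads. Just outside it, at 3.9 to 4.0, there were 795 bins with the same medians. A further 4511 bins reached the local ratio with 9 ChIP reads and missed the read minimum by 1.

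In 748 ChIP-rich bins the input held 0 reads. They had 10 to 17 ChIP reads with a median of 11. Against the floor of 3 reads that a count of 0 allows, their ratios ran from 2.02 to 9.22 with a median of 3.09. With every ChIP-rich bin raised to that floor where it held fewer input reads, and with no pseudocount, 6395 of the 10311 stayed at a ratio of 4 or more.

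The 10 bins with the most ChIP reads held 22 to 28 and lay on 8 chromosomes. The highest, at 36005001 to 36006000 of chromosome 1, held 28 ChIP and 17 input reads, a ratio of 4.21 without the pseudocount (interval 2.23 to 8.20). Of its ChIP reads 7 were on the plus and 21 on the minus strand. The bins on its left and right held 5 and 12 ChIP reads and 13 and 14 input reads, so its input level was also the highest of the 3 bins. The bin at 147582001 to 147583000 of chromosome 4 held 27 ChIP and 14 input reads, with 7 and 10 ChIP reads beside it, and a ratio of 6.44 (interval 3.26 to 13.3). Its surroundings had few ChIP reads for their input, with s at 0.299 against 0.755 over all autosomes.

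The bin at 25699001 to 25700000 of chromosome 15 lay 14.3 kb from a peak and held 25 ChIP reads against 10 input reads, a ratio of 4.64 (interval 2.15 to 10.8). Its left neighbour held 15 ChIP reads and its right neighbour 6. At 69398001 to 69399000 of chromosome 11, 23 ChIP and 10 input reads gave a ratio of 6.25 (interval 2.86 to 14.7). The bin at 95585001 to 95586000 of chromosome 11 had the highest ratio of these 10, 8.37 (interval 3.09 to 28.3), from 22 ChIP and 5 input reads. The bin at 7056001 to 7057000 of chromosome 17 held 22 ChIP and 8 input reads. Within 500 bp of it, 45 pairs of a plus-strand and a minus-strand ChIP read faced each other and 9 were in the opposite order, the most uneven split of these 10. At 95585001 on chromosome 11 the split went the other way, with 15 facing and 31 diverging pairs. The other 4 bins, at 4810001 of chromosome 19, 119940001 of chromosome 5 and 35436001 and 178311001 of chromosome 2, held 22 or 23 ChIP reads and had ratios of 4.64, 5.82, 4.87 and 4.93. The intervals of all 10 ratios overlapped, so their order by ratio is uncertain.

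The 10 bins with the largest local ratio were a separate set. All 10 held 0 input reads, and their 10 to 16 ChIP reads were close to the median of all ChIP-rich bins. The first, at 108858001 to 108859000 of chromosome 11, held 13 ChIP reads, 7 on the plus and 6 on the minus strand. Its neighbours held 5 and 4 ChIP reads and 17 and 5 input reads. Its local ratio was 29.8, and 9.22 against the floor of 3 input reads. Of the ChIP pairs around it 20 faced each other and 2 did not. The bin at 135758001 to 135759000 of chromosome 4, 3.44 kb from a peak, held 15 ChIP reads with 8 and 13 beside it, and had a local ratio of 24.02. The bin at 102718001 to 102719000 of chromosome 15 held 12 ChIP reads, of which 1 was on the plus strand. Over these 10 bins the local ratio was 20.7 or more, and against the floor it ran from 6.37 to 9.22.

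Reads in the neighbouring bins took no part in the choice, apart from their share in s. In the 20351 neighbours that were not ChIP-rich themselves, the mean was 5.44 ChIP and 6.51 input reads, against 11.6 and 2.48 in the ChIP-rich bins. The pooled ratio of the neighbours was 1.12 (interval 1.12 to 1.13), compared with 1.04 (interval 1.04 to 1.05) beside the other ChIP-high bins. It was 1.06 at 2 kb, 1.02 at 5 kb and 0.980 at 20 kb from ChIP-rich bins, and 1.01, 0.992 and 0.983 at those distances from the others. The neighbours thus stood above those of the other ChIP-high bins at 1 to 5 kb by more than counting error, while at 10 and 20 kb the intervals overlapped. With s taken from 20 kb bins the neighbours' ratio was 0.999 (interval 0.990 to 1.01). Leaving each bin's own reads out of its 20 kb gave 0.976 (interval 0.969 to 0.984), in an alternative added after seeing the data. In both settings the 20 kb of a neighbour mostly still held the ChIP-rich bin. Its reads raise s and so lower the neighbour's ratio. These values therefore cannot show whether the neighbours were raised at that scaling. In absolute reads the ChIP level beside ChIP-rich bins was lower than beside the other ChIP-high bins, at 5.44 against 5.75 per bin.

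**Figure D2:**
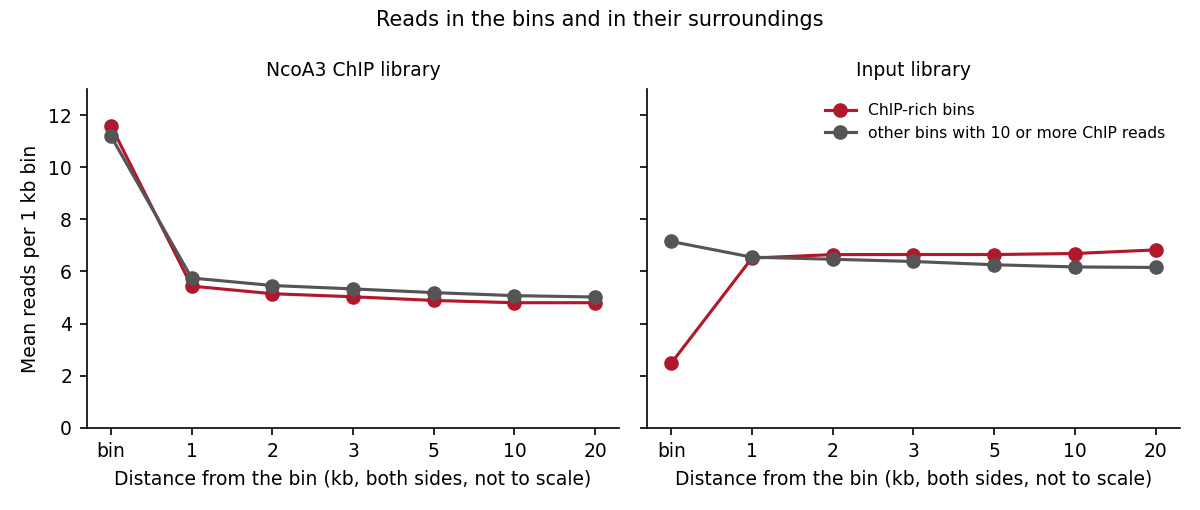
Mean reads per 1 kb bin (vertical axis) in the chosen bins and at 1 to 20 kb on both sides (horizontal axis, not to scale), for the ChIP library on the left and the input on the right. In red the ChIP-rich bins hold 11.6 ChIP and 2.48 input reads and their neighbours 5.44 and 6.51, a drop in ChIP reads and a rise in input reads from the bin to its neighbours.

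A finer scale was taken around the 10128 ChIP-rich bins without another ChIP-rich bin next to them. The first 100 bp outside such a bin held 0.575 ChIP reads per side, which fell to 0.521 at 900 to 1000 bp and 0.508 at 1900 to 2000 bp. Around the other ChIP-high bins, with those next to a ChIP-rich bin kept in, the values at these distances were 0.619, 0.567 and 0.548. The input rose over the same distance beside these ChIP-rich bins, from 0.617 in the first 100 bp to 0.649 at 200 to 300 bp, 0.672 at 900 to 1000 bp and 0.659 at 1900 to 2000 bp. Beside the others it was 0.660 in the first 100 bp and 0.644 at 1900 to 2000 bp. A neighbour with 10 or more ChIP reads on at least 1 side was present at 16.8% of all ChIP-rich bins (interval 16.1% to 17.5%) and at 20.7% of the others (interval 20.4% to 20.9%). Both neighbours reached 10 reads at 123 ChIP-rich bins, or 1.19% (interval 0.992% to 1.42%), against 1.86% of the others.

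The neighbours' ratio was also given by subset. It was 1.12 beside ChIP-rich bins of 10 to 12 ChIP reads, 1.12 beside those of 13 or 14, 1.17 beside those of 15 to 19 (interval 1.13 to 1.20) and 1.15 beside the 38 bins of 20 or more (interval 1.03 to 1.28). Beside the 1100 bins with a local ratio of 8 or more it was 1.11 (interval 1.09 to 1.14). Beside the 748 bins without an input read it was 1.03 (interval 1.001 to 1.07). The value at a local ratio of 8 or more overlapped that of all ChIP-rich bins within counting error. The value beside the bins without an input read lay below that of all ChIP-rich bins by more than counting error.

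The order of reads on the 2 strands was not used by the rule. In the ChIP library, within 500 bp of ChIP-rich bins, 100077 pairs at 36 to 300 bp faced each other, with the plus-strand read on the left, and 98250 pairs diverged. Their ratio was 1.02, the same as around the other ChIP-high bins (1.02) and near that around bins chosen with the libraries exchanged (1.04). At 100 to 200 bp the ratio was 1.07 around ChIP-rich bins and 1.07 around the others. At the 1955 autosomal peaks with under 30 input reads it was 1.61 over 36 to 300 bp and 1.72 at 100 to 200 bp. The authors' caller moves reads of both strands inward before it counts them, and such a choice favours facing pairs. Its part in the values of 1.61 and 1.72 at the peaks was not tested. Pairs share reads, so no interval is given.

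The same ratio was taken in subsets of the ChIP-rich bins. The ratio of facing to diverging ChIP pairs was 1.01 around the 807 bins with 15 or more ChIP reads and 1.03 around the 1100 with a local ratio of 8 or more. It was 1.06 around the 273 bins that lay 2 to 20 kb from a peak, and 1.12 around the 154 bins in groups of 3 or more, which rested on 1552 facing and 1381 diverging pairs. At 100 to 200 bp the values of these 4 subsets, in the same order, were 1.06, 1.09, 1.11 and 1.21. In the input library, by contrast, the ratio around ChIP-rich bins was 1.29 over 36 to 300 bp and 1.53 at 100 to 200 bp. It was 1.23 and 1.43 around the other ChIP-high bins, and 1.15 and 1.28 at the peaks with under 30 input reads.

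**Figure D3:**
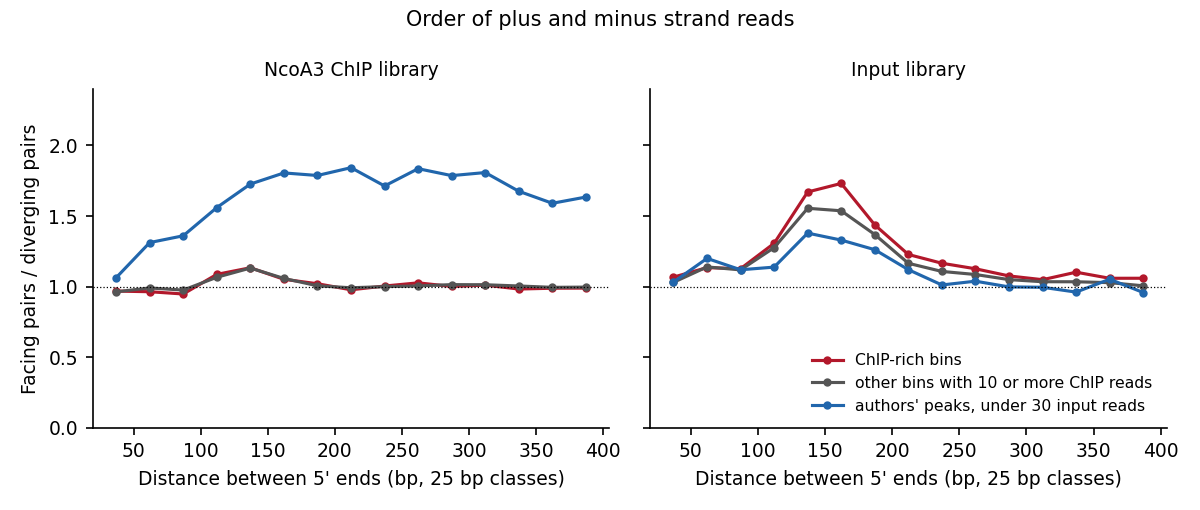
Facing over diverging pairs of plus and minus strand 5′ ends (vertical axis) by their distance in 25 bp classes (horizontal axis), for the ChIP library on the left and the input on the right. In the ChIP library the red line of the ChIP-rich bins follows the grey line of the other ChIP-high bins and reaches 1.13 at 125 to 149 bp, where the authors' peaks in blue stand at 1.73.

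Within a bin, ChIP reads lay no closer together in ChIP-rich bins than in other bins with as many reads. Among bins with 10 ChIP reads, the fullest 200 bp window held 4.74 ± 1.002 reads (SD over 3609 bins) in ChIP-rich bins and 4.74 ± 0.997 (SD over 54434 bins) in the others. Among bins with 12 reads it held 5.44 ± 1.10 and 5.46 ± 1.10 reads, and among bins with 15 reads 6.57 ± 1.254 and 6.55 ± 1.31. The median distance from the first to the last read was 821 bp against 816 bp at 10 reads and 869 bp in both sets at 15. The plus strand held 49.7% of the ChIP reads in ChIP-rich bins (interval 49.4% to 49.99%) and 49.96% in the others (interval 49.87% to 50.04%). At 44 ChIP-rich bins, or 0.427%, all ChIP reads were on 1 strand. Among bins with 10 reads this share was 0.637% in ChIP-rich bins and 0.724% in the others. Among bins with 11 reads it was 0.511% and 0.473%.

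Because the choice of the bins raises their own ratio, a value free of such a choice was taken from the opposite strand. This was done in larger sets of bins chosen on 1 strand. The values belong to those sets and are not a ratio of the ChIP-rich bins themselves. Bins were chosen by the same rule on plus-strand reads alone, with 5 or more ChIP reads and under 15 input reads, and their minus-strand reads were then counted. On plus-strand reads 35596 bins were chosen, 12.2% of those with enough ChIP reads, and on minus-strand reads 36027, or 12.4%. In the bins chosen on the plus strand, the ratio was 12.8 on that strand, as the rule requires, and 1.27 on the minus strand (interval 1.26 to 1.28). The minus strand held 2.71 ChIP and 2.88 input reads per bin. In bins that reached the ChIP minimum on the plus strand and were not chosen, the minus-strand ratio was 1.06 (interval 1.06 to 1.06). There the minus strand held 2.82 ChIP and 3.25 input reads per bin. With the strands exchanged, the values were 1.27 (interval 1.26 to 1.28) and 1.06 (interval 1.06 to 1.07). The ratio on the opposite strand was thus 1.27 where the choosing strand had stood at 12.8. It was above that of the bins not chosen by more than counting error. The ChIP reads per bin on that strand were not higher than in the bins not chosen, while the input reads were lower.

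**Figure D4:**
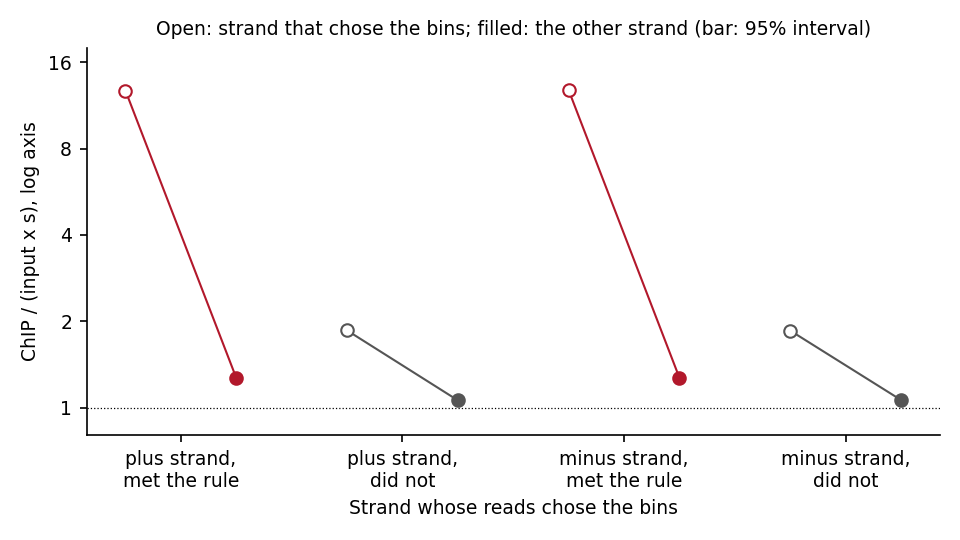
ChIP reads over input reads times s (vertical log axis) in bins chosen on reads of 1 strand (horizontal axis), on the strand that chose them (open circles) and on the other strand (filled circles, bars for the 95% interval, smaller than the symbols). Red bins met the rule on the choosing strand and fall from 12.8 to 1.27; grey bins reached the ChIP minimum only and fall from 1.86 to 1.06.

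More reads on the choosing strand went with only slightly higher values on the other. Bins chosen with 8 or more plus-strand ChIP reads had a minus-strand ratio of 1.28 (interval 1.26 to 1.31), those with 10 or more 1.31 (interval 1.251 to 1.36) and the 244 with 12 or more 1.35 (interval 1.23 to 1.48). These classes are nested and their intervals overlap. With input and ChIP exchanged in the rule, the bins chosen on the plus strand stood at 0.576 on the minus strand, a larger departure from 1. Of the bins chosen on the plus strand, 1043 were also chosen on the minus strand, or 2.93% (interval 2.76% to 3.11%). Among bins that reached the plus-strand ChIP minimum but were not chosen, 1.89% were chosen on the minus strand. Those 1043 bins were all ChIP-rich on both strands together, which the limits on each strand all but require. They made up 10.1% of the 10311.

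ChIP-rich bins were spread over all 19 autosomes, with 252 on the part of chromosome 8 that was kept and 864 on chromosome 1. Their number per 1000 open bins ran from 3.67 on chromosome 8 to 5.05 on chromosome 19. As a share of bins with 10 or more ChIP reads they ran from 6.59% on chromosome 13 to 9.45% on chromosome 7, around the 7.70% over all autosomes. Their share depended on the surroundings through s. Where s was under 0.5 they were 17.8% of the bins with 10 or more ChIP reads, with a median of 5 input reads. Where s was 0.75 to 1 they were 6.52%, with a median of 2 input reads. Since s enters the rule, these shares describe it.

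Distance from the authors' peaks was compared next, to ask whether ChIP-rich bins gather around them. The share of open bins with 10 or more ChIP reads fell from 12.3% at 2 to 5 kb from a peak to 4.75% at 1000 kb or more. As a share of those bins, the ChIP-rich bins made up 4.32% at 2 to 5 kb, 4.099% at 5 to 10 kb and 8.88% at 1000 kb or more. Per open bin they changed less, from 5.30 per 1000 open bins (interval 3.96 to 6.94) at 2 to 5 kb to 4.22 per 1000 (interval 4.07 to 4.37) at 1000 kb or more. They numbered 52 at 2 to 5 kb and 68 at 5 to 10 kb, where they stood at 4.26 per 1000 (interval 3.31 to 5.40). At 20 to 50 kb, with 442 bins, the value was 5.05 (interval 4.59 to 5.54), which lay above that at 1000 kb or more. So did the values at 50 to 100 kb, 4.83 (interval 4.46 to 5.22), and at 100 to 200 kb, 4.80 (interval 4.52 to 5.08). The median distance to a peak was 540 kb for ChIP-rich bins, 449 kb for the other ChIP-high bins and 574 kb for all open bins.

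**Figure D5:**
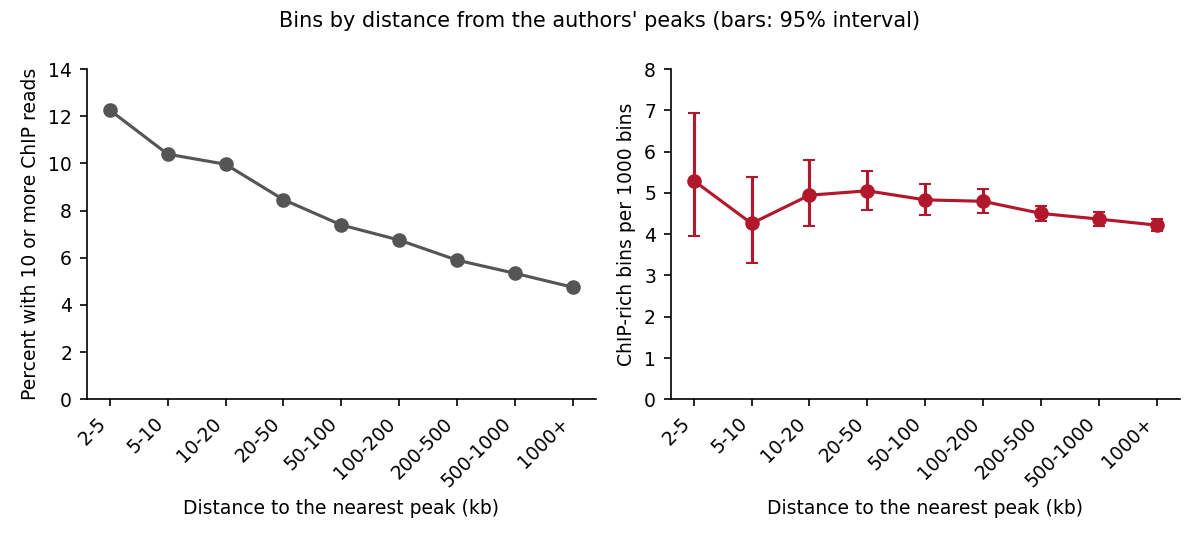
Percent of open bins with 10 or more ChIP reads (left) and ChIP-rich bins per 1000 open bins (right, bars for the 95% interval) by distance to the nearest of the authors' peaks in kb. The left values fall from 12.3% to 4.75% with distance, and the right values stay between 4.22 and 5.30.

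Most ChIP-rich bins stood alone. Only 183 had another in the bin next to them, or 1.77% (interval 1.53% to 2.05%), and a ChIP-rich bin lay next to 1.34% of the other ChIP-high bins (interval 1.28% to 1.41%). Within 10 kb the shares were 11.8% (interval 11.2% to 12.5%) and 9.99% (interval 9.83% to 10.2%), and within 50 kb 39.0% and 37.9%. With s from 20 kb bins, 7993 bins met the rule and the share within 10 kb was 6.38%. No share of the other ChIP-high bins was taken at that scaling. Joined where their starts lay at most 10 kb apart, 9091 stayed single, 533 groups held 2, 40 held 3, 6 held 4 and 2 held 5.

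The 2 groups of 5 lay in surroundings with few ChIP reads for their input. The first spanned 125675001 to 125701000 of chromosome 4, 675 kb from a peak. Its 5 bins held 10, 11, 17, 12 and 12 ChIP reads against 4, 6, 9, 4 and 4 input reads, and s was 0.394 for the first 4 bins and 0.348 for the last. The 21 bins between them, which were not ChIP-rich, had a ratio of 1.90 (interval 1.504 to 2.41). The second spanned 91700001 to 91717000 of chromosome 2, with s at 0.318. Its bin with the highest ratio, at 91709001, held 15 ChIP and 2 input reads, and the 12 bins between its members had a ratio of 2.02 (interval 1.46 to 2.79).

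The group at 82709001 to 82724000 of chromosome 15 held 4 bins of 11 to 18 ChIP and 5 to 7 input reads, with a ratio of 1.96 (interval 1.398 to 2.72) in the bins between. In these 3 groups the ratio was thus also above 1 in bins that did not meet the rule. The groups were picked for their number of ChIP-rich bins, and the intervals make no allowance for that choice. The groups at 26501001 to 26519000 and 47101001 to 47113000 of chromosome 17 had ratios of 1.14 (interval 0.859 to 1.495) and 1.31 (interval 0.860 to 1.97) between their 4 bins each, with intervals that include 1. The remaining groups of 4 bins held fewer ChIP reads. At 42625001 and 57682001 of chromosome 19 the ratios between the bins were 1.23 (interval 0.913 to 1.65) and 0.892 (interval 0.644 to 1.23). At 108165001 of chromosome 4 the ratio was 1.27 (interval 0.865 to 1.86). These intervals also include 1. Beside all 154 bins in groups of 3 or more the neighbours stood at 1.37 (interval 1.28 to 1.46).

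The choice of single bins was sensitive to where their edges fell. With the bins moved by 500 bp, 10564 met the rule, and 2259 of the ChIP-rich bins overlapped one of them, or 21.9% (interval 21.1% to 22.7%). An overlapping bin shares 500 bp with the ChIP-rich bin, and no such share was taken for the other ChIP-high bins. With 5′ ends moved inward towards the fragment centre, 6625 of the ChIP-rich bins met the rule again. With 1 ratio of the libraries for all autosomes in place of s, 15949 bins met the rule, among them 7231 of the ChIP-rich bins. Most single bins thus did not recur on the moved grid, although the number of bins was nearly the same.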

How the data were processed

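The authors deposited aligned reads of 1 NcoA3 ChIP and 1 input library of E14 cells, with start, end and strand. The build is mm8, per the submitters' processing notes, and the reads were placed by an aligner not given in the sources used here. All reads are 35 bp long. The peak list came from MACS 1.4.1 with a p-value limit of 1e-05, per the file headers, and its positions alone were used.

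Read 5′ ends were counted per bin with numpy 2.4.6 and pandas 2.3.3 in Python 3.11.15, and intervals were computed with scipy 1.17.1. With 1 library per group no test between conditions was possible. Intervals are exact at 95%: Clopper-Pearson for shares, and for ratios the same interval given the total of both libraries, with s averaged over the input reads. Reads carry no molecular identifiers and are not independent molecules, so intervals and the floor of 3 reads for a count of 0 cover counting error alone. Neighbours were bins 2 kb or more from a peak and not ChIP-rich. Named regions were the 10 with most ChIP reads, the 10 with the largest local ratio and the 5 largest groups, with ties between groups broken by ChIP reads. The bins, the rule and the comparisons were chosen with earlier results of these data known. The counting was tested on simulated data. Gene annotation and genome sequence of mm8 were not used here.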

Additional observations from a re-analysis of the deposited data

How the results depend on the processing

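Each of 6 results was recomputed under 11 alternatives, and 1 more was chosen after seeing the data. No paired analysis was possible because each group had 1 library. The number of ChIP-rich bins stayed within 1.5 times of 10311 except with 1 ratio for all autosomes (15949), 15 or more ChIP reads (807) and a local ratio of 6 or more (2476). The cause of changes was not tested, apart from the stricter limits, which keep fewer bins.

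The ratio of facing to diverging pairs, 1.02 in the report, was 1.06 with 5′ ends moved inward and 1.01 with 1 ratio for all autosomes. A choice of bins on reads moved inward favours facing pairs, as in the authors' caller. Its part in the value of 1.06 was not tested. The pooled ratio of the chosen bins was 7.43 with s from 20 kb, 7.17 with s from 1 Mb, 7.75 with 1 ratio for all autosomes, 6.56 with a pseudocount of 0.5, 6.60 with 15 or more ChIP reads and 14.99 with a local ratio of 6 or more. The neighbours' ratio was 1.11 with 5′ ends moved inward, 0.999 with s from 20 kb, 1.23 with s from 1 Mb, 1.48 with 1 ratio for all autosomes, 1.11 with a pseudocount of 0.5, 1.18 with 15 or more ChIP reads and 1.16 with a local ratio of 6 or more. Under these 2 stricter limits, bins that met the original rule could count as neighbours, unlike in the subsets of the report. With s from 20 kb without the bin itself, the added alternative, it was 0.976.

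The share with another ChIP-rich bin within 10 kb was 12.5% on the moved grid, 6.38% with s from 20 kb, 18.2% with s from 1 Mb, 12.7% with s without the bin itself, 20.9% with 1 ratio for all autosomes, 13.9% with a pseudocount of 0.5, 1.73% with 15 or more ChIP reads, 3.998% with a local ratio of 6 or more and 8.58% in the added alternative. The number of bins differed between these settings, and no comparison share was taken in them. The opposite-strand ratio was 1.30 with 5′ ends moved inward, 1.29 on the moved grid, 1.24 with s from 20 kb, 1.33 with s from 1 Mb, 1.56 with 1 ratio for all autosomes, 1.245 with a pseudocount of 0.5, 1.28 with 15 or more ChIP reads, 1.32 with a local ratio of 6 or more and 1.22 in the added alternative. The stricter ChIP minimum was 8 reads on 1 strand there. At 11 ChIP and 2 input reads per bin, counting error limits what a single bin can show.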

Other observations

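Chromosome X was outside the rule. The same limits there took 90 of 354 bins with 10 or more ChIP reads, or 25.4%, and with the libraries exchanged 379 of 1135 bins with 10 or more input reads, or 33.4%. Both shares were higher than on the autosomes, at 7.70% and 5.64%, and few bins on chromosome X reached the read minimum. The share of all open bins, 0.446% on the autosomes, was not taken for chromosome X. These values therefore cannot show whether ChIP-rich bins were more frequent there.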
